A study of Mus musculus with 9 samples.

Results

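The Notch pathway genes described here are 10 mouse genes, Notch1, Notch2, Notch3, Lfng, Numb, Rbpj, Maml1, Dtx1, Hes1 and Nrarp. They were chosen by symbol, as the 10 rows of 53715 in a gene count table whose Ensembl ID carries one of these names, and all 10 passed the filter on low counts that left 17351 genes for testing. The study compared SRSF1KO and WT thymocytes, SRSF1 being an RNA-binding protein of pre-mRNA splicing. Srsf1 reads were lower in SRSF1KO but not absent, as given below. The SRSF1KO group (2 libraries) had the genotype Srsf1fl/fl Lckcre/+, in which Cre recombinase is driven by Lck, a kinase gene of the T cell lineage, and the other group (3 libraries) was labelled WT with no further allele named. Both groups were C57BL/6 mice of 6 to 8 weeks, and TCRβ+ CD69+ CD24+ CD4+ CD8+ thymocytes were sorted from the thymus for bulk RNA-seq by Smart-seq2. Nothing in the labels ties a replicate to its own animal, so each p-value reflects the spread between these 5 libraries, which may in part be technical. SRSF1 and IgG CLIP-seq samples of total thymocytes (2 each) were not analysed here.

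Among these genes, Dtx1 and Lfng had the lowest levels in SRSF1KO relative to WT and Rbpj stood higher. Dtx1 averaged 34.5 ± 0.149 CPM in SRSF1KO and 68.0 ± 15.1 CPM in WT, and Lfng averaged 40.8 ± 14.2 CPM in SRSF1KO and 71.7 ± 7.01 CPM in WT (SD, n = 2 and n = 3). Rbpj averaged 77.4 ± 2.20 CPM in SRSF1KO and 56.0 ± 5.26 CPM in WT (SD, n = 2 and n = 3). CPM here are counts scaled to a common library size by TMM normalisation. The SRSF1KO spread of Dtx1 was below its counting error, so it does not measure how precisely that level is known. None of the 10 genes passed the edgeR quasi-likelihood test at an adjusted p under 0.05, a threshold that 0.265% of all genes tested passed. Of the 10 genes, 3 had an unadjusted p under 0.05 (Dtx1, Lfng and Rbpj), against 14.4% of all genes tested, and DESeq2 called the same 3, against 6.22% of the genes it tested. DESeq2 was the less strict test here, with 1016 genes called over the whole table against 46 with edgeR. In simulated counts, described with the processing, DESeq2 called 58 unchanged genes and edgeR 8. Those counts used dispersions estimated by edgeR and few changed genes, so they do not settle how reliable the DESeq2 calls are. In bulk samples such as these, fewer cells of a type and less RNA per cell cannot be told apart.

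Notch receptors are single-pass membrane proteins that are cut after binding a ligand on a neighbouring cell. The freed intracellular part enters the nucleus, joins the DNA-binding protein RBPJ and a Mastermind coactivator, and switches on target genes such as Hes1, Dtx1 and Nrarp. In the mouse thymus Notch1 signalling commits progenitors to the T lineage and carries them through the double-negative stages, after which target gene expression declines in double-positive cells. Fringe enzymes add sugars to the receptors and change which ligands they respond to, and in mouse thymocytes Lfng is known to be low in double-positive cells and higher before and after that stage.

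The promoters of the 3 genes with an unadjusted p under 0.05 are shown because Rbpj encodes the DNA-binding factor of the pathway and Dtx1 is a known target. Each window runs from 250 bases before to 50 bases after a RefSeq transcript start on GRCm38.p6, printed 5′ to 3′ on the strand of the gene. Capitals mark the core of the RBPJ recognition sequence, TGGGAA or its complement TTCCCA. The windows are chr5:140607091-140607390 (plus strand) for Lfng, chr5:53590096-53590395 (plus strand) for Rbpj and chr5:120711620-120711919 (minus strand) for Dtx1.
Lfng: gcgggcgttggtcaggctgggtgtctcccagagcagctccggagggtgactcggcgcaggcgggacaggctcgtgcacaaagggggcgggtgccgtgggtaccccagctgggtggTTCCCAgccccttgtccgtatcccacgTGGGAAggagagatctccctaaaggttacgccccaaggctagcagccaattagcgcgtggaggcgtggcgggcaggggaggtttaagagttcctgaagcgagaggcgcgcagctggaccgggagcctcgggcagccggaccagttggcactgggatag
Rbpj: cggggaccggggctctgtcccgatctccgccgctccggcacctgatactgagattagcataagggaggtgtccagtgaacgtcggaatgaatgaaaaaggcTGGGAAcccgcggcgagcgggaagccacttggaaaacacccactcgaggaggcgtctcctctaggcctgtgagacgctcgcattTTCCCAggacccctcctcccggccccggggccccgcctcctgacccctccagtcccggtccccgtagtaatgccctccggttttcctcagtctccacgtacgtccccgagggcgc
Dtx1: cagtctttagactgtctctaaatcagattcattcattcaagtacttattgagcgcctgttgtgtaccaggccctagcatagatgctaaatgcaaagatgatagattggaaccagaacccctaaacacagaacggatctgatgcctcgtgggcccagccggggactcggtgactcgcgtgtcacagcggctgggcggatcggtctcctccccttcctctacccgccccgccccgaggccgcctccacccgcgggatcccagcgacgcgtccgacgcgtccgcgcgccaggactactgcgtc

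Lfng held 2 matches to the core, beginning 135 and 108 bases before the start and separated by 21 bases, and the second was part of the longer form GTGGGAA. Rbpj held 2 matches, beginning 149 and 65 bases before the start, with no GTGGGAA, and a second RefSeq start of Rbpj had a window that overlaps this one. Both windows lie inside the Rbpj gene, whose coordinates begin at 53555779, and no window covered that outermost position. The Dtx1 window held no match, which says only that these letters are not in it. The core occurred on either strand in 25.6% of the 32851 promoter windows of the table and at 2 or more places in 3.79% of them, while GTGGGAA or its complement TTCCCAC occurred in 6.38%. RefSeq windows were matched for 9 of the 10 genes, all but Hes1, giving 12 windows, and no window of Notch1, Notch2, Notch3, Maml1, Nrarp or Numb held the core. A match of these letters is a description of the sequence and shows no binding.

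**Figure D1:**
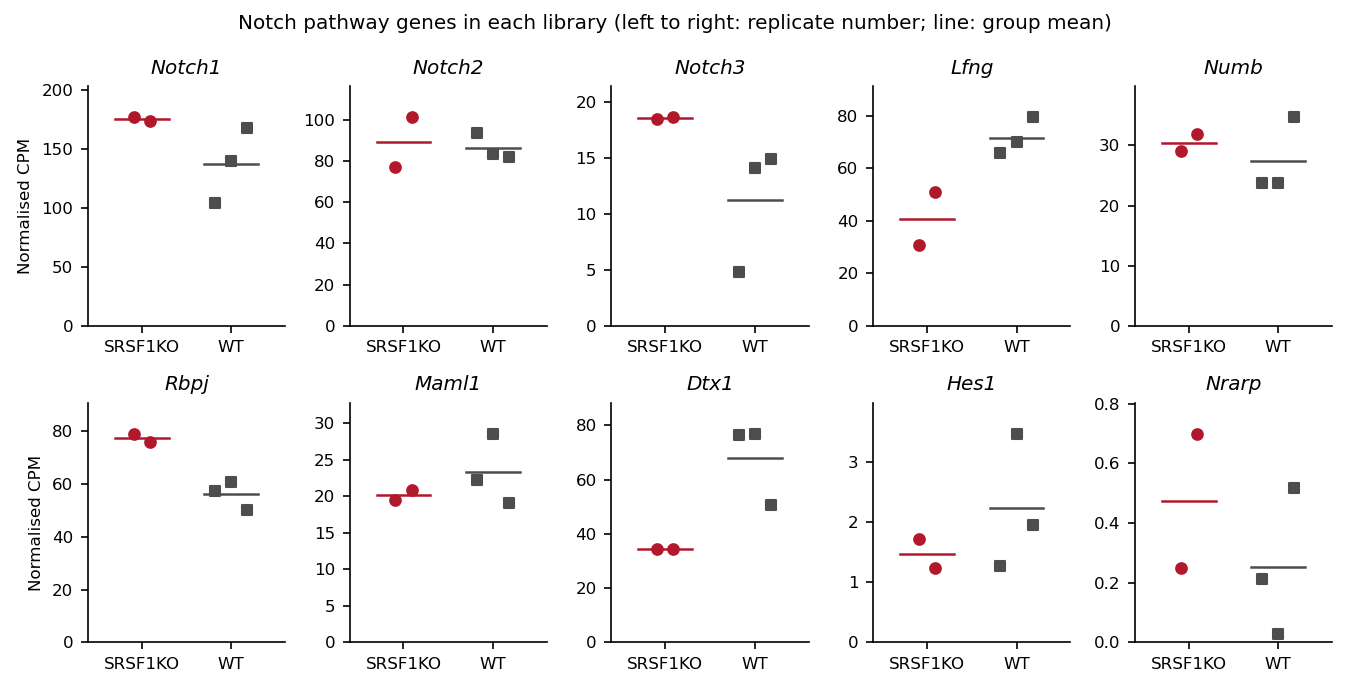
Normalised CPM (vertical axis, linear from 0, a scale of its own in each panel) of the 10 genes in the 2 SRSF1KO libraries (red circles, left) and the 3 WT libraries (grey squares, right), with horizontal lines at the group means. The groups do not overlap for Notch1, Notch3, Lfng, Rbpj and Dtx1, and Dtx1 sits at 34.6 and 34.4 CPM in SRSF1KO, against 50.5 to 76.9 CPM in WT.

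The receptors were measured at depths from 182 to 6474 counts per library, and gene coordinates are those of GRCm38. Notch1 (ENSMUSG00000026923.15, chromosome 2, 26457902 to 26503822), the receptor that acts in T lineage commitment, stood at 176.8 and 173.6 CPM in SRSF1KO replicates 1 and 2, against 104.5, 139.8 and 168.1 CPM in WT replicates 1, 2 and 3. The SRSF1KO libraries lay close together and just above the highest WT library. Its log2 fold change was 0.35 ± 0.19 (SE), with a 95% interval from −0.083 to 0.78, and did not pass (edgeR, adjusted p = 0.446). The WT libraries alone spanned 1.61-fold, and without WT replicate 1 the log2 fold change was 0.20. The overlapping noncoding gene 0610009E02Rik held at most 1.23 CPM.

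Notch3 (ENSMUSG00000038146.7, chromosome 17, 32120820 to 32166896), a receptor known in mice for its expression in immature thymocytes, stood at 18.4 and 18.6 CPM in SRSF1KO, against 4.81, 14.1 and 14.9 CPM in WT. WT replicate 1 was the low library, 3.1-fold below the highest one, and the groups did not overlap. The log2 fold change was 0.72 ± 0.45 (SE, 95% interval −0.34 to 1.78, edgeR adjusted p = 0.535), and it was 0.37 without WT replicate 1. Both Notch1 and Notch3 were lowest in this library.

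Notch2 (ENSMUSG00000027878.11, chromosome 3, 98013538 to 98150367), a receptor used by several blood cell lineages, stood at 77.2 and 101.1 CPM in SRSF1KO, against 93.5, 83.5 and 81.8 CPM in WT. The SRSF1KO libraries lay on either side of all WT libraries. Its log2 fold change of 0.05 ± 0.15 (SE, 95% interval −0.30 to 0.40, edgeR adjusted p = 0.941) changed sign, to −0.14, without SRSF1KO replicate 2. The interval still allows a change of up to about the size of that estimated for Notch1.

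Lfng (ENSMUSG00000029570.5, chromosome 5, 140607341 to 140615545), the Lunatic fringe glycosyltransferase that modifies Notch receptors, stood at 30.8 and 50.8 CPM in SRSF1KO, against 65.7, 69.9 and 79.4 CPM in WT. Both SRSF1KO libraries lay below all WT libraries, but they differed from each other by 1.65-fold, more than the 1.21-fold span of the WT libraries. The log2 fold change was −0.81 ± 0.23 (SE, 95% interval −1.34 to −0.28), with an unadjusted p of 0.00801 and an adjusted p of 0.184 in edgeR. DESeq2 called it lower (adjusted p = 0.015), and so did edgeR without a filter on low counts (adjusted p = 0.0204). The log2 fold change depended on which SRSF1KO library was kept, being −0.50 without replicate 1 and −1.20 without replicate 2.

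Numb (ENSMUSG00000021224.15, chromosome 12, 83794034 to 83921942), an adaptor that antagonises Notch by directing the receptor to endocytosis, stood at 29.1 and 31.8 CPM in SRSF1KO, against 23.8, 23.8 and 34.7 CPM in WT. The SRSF1KO libraries lay within the WT range, and the log2 fold change was 0.15 ± 0.23 (SE, 95% interval −0.38 to 0.69, edgeR adjusted p = 0.845). Numb is spliced into several isoforms, and counts per gene do not show which ones were present. The Numb locus overlaps 4 other annotated genes. Of these, the pseudogene Gm3791 had the most reads, at 4.38 and 2.99 CPM in SRSF1KO and 1.11 to 2.70 CPM in WT. No source used here states whether the counting took account of strand, so these genes may share reads with Numb.

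Rbpj (ENSMUSG00000039191.12, chromosome 5, 53555779 to 53657445), the DNA-binding protein that turns Notch cleavage into transcription, stood at 79.0 and 75.9 CPM in SRSF1KO, against 57.1, 60.6 and 50.3 CPM in WT. The groups did not overlap, and each was tight, with a coefficient of variation of 2.84% in SRSF1KO and 9.39% in WT. The log2 fold change of 0.47 ± 0.14 (SE, 95% interval 0.15 to 0.79) had an unadjusted p of 0.0102 and an adjusted p of 0.200 in edgeR, and DESeq2 called it higher (adjusted p = 0.0403). With any single library left out the log2 fold change stayed between 0.41 and 0.53. No other RefSeq gene lies inside its coordinates.

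Maml1 (ENSMUSG00000050567.16, chromosome 11, 50255634 to 50293131), a Mastermind coactivator that binds the complex of RBPJ and Notch, stood at 19.5 and 20.8 CPM in SRSF1KO, against 22.2, 28.6 and 19.0 CPM in WT. The SRSF1KO libraries lay within the WT range, with WT replicate 2 the highest library. The log2 fold change was −0.21 ± 0.24 (SE, 95% interval −0.76 to 0.35, edgeR adjusted p = 0.785).

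Dtx1 (ENSMUSG00000029603.15, chromosome 5, 120680203 to 120711867), which encodes the E3 ubiquitin ligase Deltex1 and is both a target and a regulator of Notch, stood at 34.6 and 34.4 CPM in SRSF1KO, against 76.4, 76.9 and 50.5 CPM in WT. The SRSF1KO libraries were nearly equal, and WT replicate 3 was the WT library nearest to them. The log2 fold change of −0.98 ± 0.21 (SE, 95% interval −1.48 to −0.48) had the smallest unadjusted p of the 10 genes, 0.00215, and did not pass after adjustment (edgeR, adjusted p = 0.127). DESeq2 called Dtx1 lower (adjusted p = 0.000861). It was also called lower by edgeR without a filter on low counts (adjusted p = 0.0038) and, with an adjusted p of 0.029, when the test was limited to genes averaging 5 CPM or more. With any single library left out the log2 fold change lay between −1.14 and −0.88, with adjusted p between 0.209 and 0.303.

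Hes1 (ENSMUSG00000022528.7, chromosome 16, 30065357 to 30067796), a transcriptional repressor and classical Notch target, was near the lower end of what was measured, at 1.72 and 1.23 CPM in SRSF1KO, against 1.27, 3.46 and 1.95 CPM in WT. These levels rest on 62 and 44 counts in SRSF1KO and on 48, 126 and 75 counts in WT. The groups overlapped, and the log2 fold change of −0.59 ± 0.66 (SE) had a 95% interval from −2.14 to 0.95 (edgeR, adjusted p = 0.776). Without WT replicate 2, the highest library, the log2 fold change was −0.12, and with any other single library left out it lay between −0.86 and −0.35. Counting error was 15.1% of the level in the lowest library, less than the spread of 50.5% between WT libraries. Nrarp (ENSMUSG00000078202.3, chromosome 2, 25180758 to 25183339), a small ankyrin-repeat protein induced by Notch that limits Notch signalling, had 9 and 25 counts in SRSF1KO, against 8, 1 and 20 counts in WT. In CPM these were 0.250 and 0.700 in SRSF1KO, against 0.211, 0.0275 and 0.519 in WT, and the log2 fold change of 0.90 had a 95% interval from −2.53 to 4.33 (edgeR, adjusted p = 0.862). It was 0.0004 without SRSF1KO replicate 2 and 1.46 without SRSF1KO replicate 1. A change of Nrarp within this interval was not detectable at this depth.

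**Figure D2:**
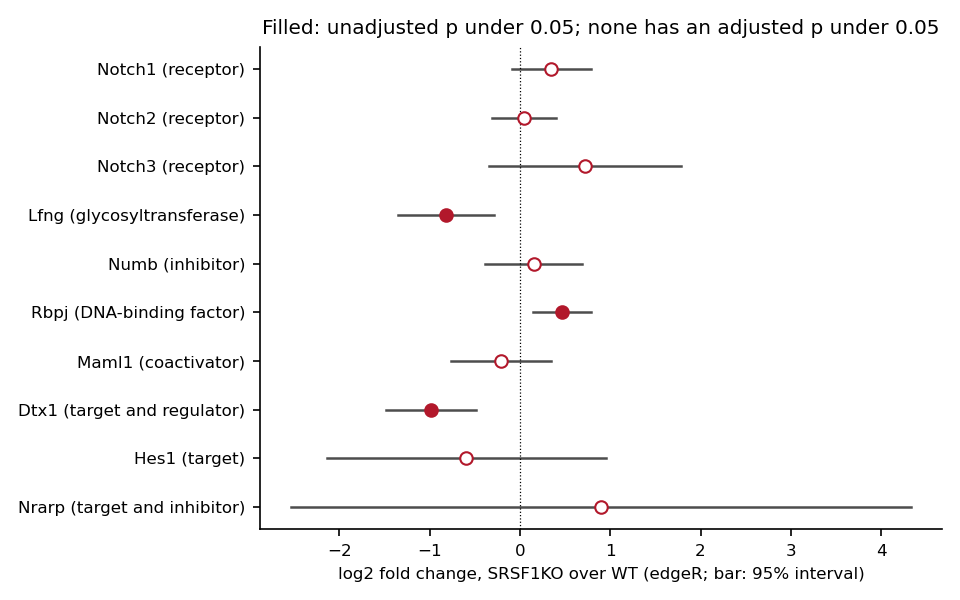
log2 fold change of SRSF1KO over WT (horizontal axis) for the 10 genes, in the order of their roles, with 95% intervals from the edgeR fit as bars. Filled points have an unadjusted p under 0.05: Lfng at −0.81, Rbpj at 0.47 and Dtx1 at −0.98, while the intervals of Hes1 and Nrarp are the widest.

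For the 10 genes, the log2 fold changes had a median of 0.10 and 6 were positive, against a median of −0.0063 over all genes tested, of which 49.4% were positive. SRSF1KO and WT libraries did not overlap for 5 of the 10 genes, a share of 50% set against 32.9% of all genes tested. They were higher in SRSF1KO for 3 of these (Notch1, Notch3 and Rbpj; 15.2% of all genes tested) and lower for 2 (Lfng and Dtx1; 17.8% of all genes tested). Of these 5, Notch1 and Notch3 did not reach an unadjusted p under 0.05 in edgeR, and their 95% intervals include 0. Counting error alone was 1.59% to 3.00% of the level in the lowest library of Notch1, Notch2, Lfng, Rbpj and Dtx1, and their spread in WT, 7.34% to 23.2%, was larger. The spread of Dtx1 between the 2 SRSF1KO libraries, 0.432%, was below its counting error of 2.85%. That of Notch3 in SRSF1KO, 0.597%, was also below the counting error of its 665 counts in each of these libraries. Such closeness of 2 libraries does not show precision. For Nrarp the counting error in the lowest library was as large as the level itself (100%). The deposited counts carry no transcript length, so levels are not ranked between genes.

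**Figure D3:**
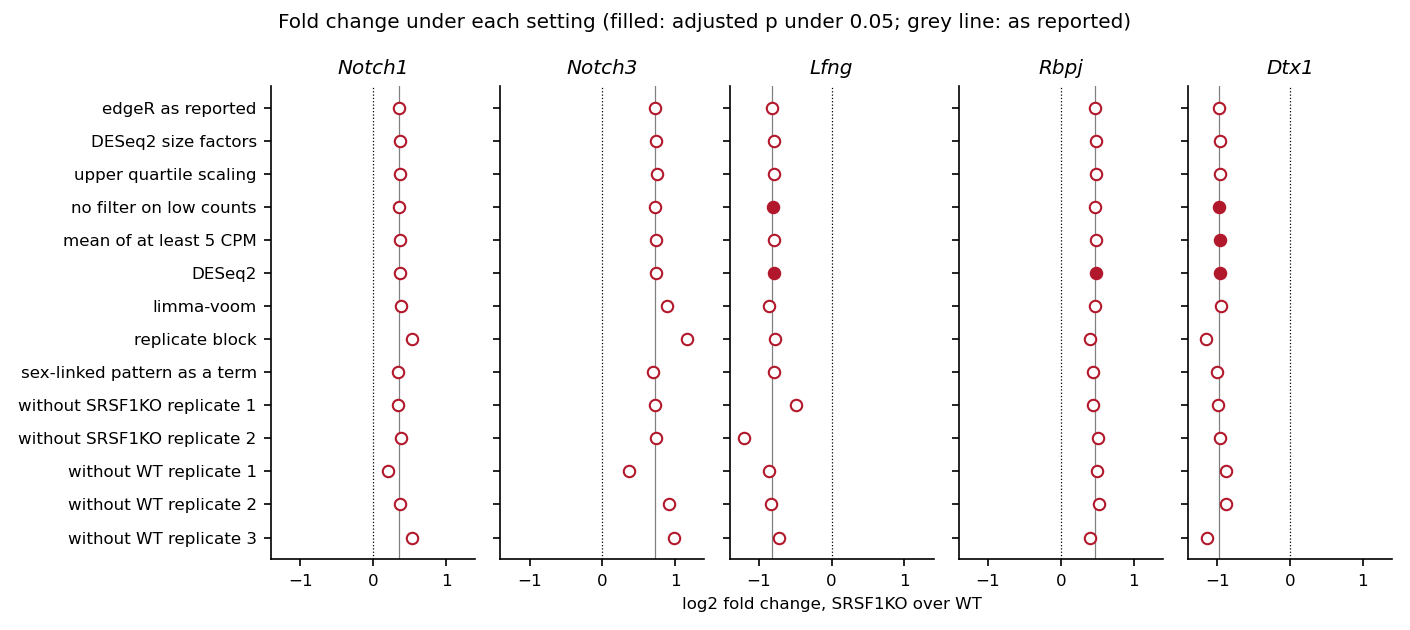
log2 fold change of SRSF1KO over WT (horizontal axis) of 5 of the genes under the reported edgeR fit and 13 other settings (rows). Filled points have an adjusted p under 0.05; no sign changes among these 5 genes, and Dtx1 is filled under 3 settings, Lfng under 2 and Rbpj under 1.

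The number of these genes called depended on the test and on the filter. Of the 10, edgeR called 2 (Dtx1 and Lfng) when no filter on low counts was applied, a fit that called 1.77% of all its genes. It called 1 of the 8 that remained (Dtx1) when genes averaging under 5 CPM were left out, where 3.79% of all genes were called. DESeq2 called 3, as given above. limma-voom called 0, against 0.478% of all genes tested. It had 3 of the 10 at an unadjusted p under 0.05, against 2566 of all 17351 genes tested.

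Other genes of the pathway were read from 6 lists, chosen by role. All 85 were in the count table, 80 were tested, and 0 were called by edgeR in either direction. Of the 80, 14 were higher and 3 lower at an unadjusted p under 0.05, against 5.90% higher and 8.45% lower over all genes tested. DESeq2 called 6 higher (Cbl, Ikzf1, Tcf7, Gata3, Bcl11b and Runx1) and 3 lower (Mfng, Neurl3 and Myc), against 2.34% higher and 3.87% lower over all genes it tested. limma-voom called 1 (Tcf7, with a log2 fold change of 0.41 in edgeR), against 0.478% of all genes tested.

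The ligand list gave few reads, and Notch ligands are mostly made by the stroma that thymocytes meet. Dll4, the ligand for Notch1 on thymic epithelium, had 0 counts in both SRSF1KO libraries and 1, 29 and 2 counts in WT replicates 1, 2 and 3, and did not pass the filter for testing. Jag2, a Jagged ligand, stood at 7.99 and 4.73 CPM in SRSF1KO and at 2.35, 8.00 and 4.23 CPM in WT, which overlap. Dll3, a member of the Delta family that does not activate Notch from a neighbouring cell, had 12 and 15 counts in SRSF1KO and 0 in each WT library. The pooled Dll3 level in SRSF1KO, only 0.376 CPM, was 14.1-fold above a floor of 3 counts over the WT group. That ratio leaves out the error of the SRSF1KO counts, so it is not a lower limit. The edgeR log2 fold change of Dll3 had a 95% interval from 1.25 to 12.37, and Dll3 did not pass (edgeR, adjusted p = 0.276). The median over the 4 ligand and receptor genes tested was −0.045, also with Dll3 set at that 14.1-fold ratio.

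For 14 genes of receptor processing and glycosylation, the log2 fold changes had a median of 0.0035. At an unadjusted p under 0.05, 0 were higher and 1 lower, against 5.9% higher and 8.45% lower over all genes tested. That 1 was Mfng, the Manic fringe enzyme and a relative of Lfng, at 57.8 and 70.2 CPM in SRSF1KO and 99.7, 94.8 and 85.0 CPM in WT (log2 fold change −0.54 ± 0.14, SE; edgeR adjusted p = 0.164; DESeq2 adjusted p = 0.0255). The SRSF1KO libraries of Mfng lay below all WT libraries, as did those of Lfng. Rfng, the remaining fringe gene, stood at 78.3 and 58.8 CPM in SRSF1KO and 73.5, 53.5 and 50.3 CPM in WT, which overlap. Psen2, a presenilin of the γ-secretase that cuts Notch, stood at 9.68 and 5.20 CPM in SRSF1KO and 11.4, 11.1 and 17.2 CPM in WT (edgeR, adjusted p = 0.375).

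The 19 genes of endocytosis, ubiquitin ligation and turnover had a median of 0.0002. At an unadjusted p under 0.05, 1 was higher and 1 lower, against 5.9% higher and 8.45% lower over all genes tested. Cbl, an E3 ligase that also acts on T cell receptor signalling, stood at 667.3 and 530.9 CPM in SRSF1KO and 388.4, 427.9 and 432.5 CPM in WT (log2 fold change 0.53 ± 0.12, SE; edgeR adjusted p = 0.127; DESeq2 adjusted p = 0.0018). Neurl3, a Neuralized-family E3 ligase gene, stood at 2.27 and 8.65 CPM in SRSF1KO and 21.8, 10.1 and 20.5 CPM in WT (−1.68 ± 0.60, SE; edgeR adjusted p = 0.278; DESeq2 adjusted p = 0.0363). Both genes had groups that did not overlap, as did 32.9% of all genes tested. They were named for having the smallest p of this list, so this separation adds no support of its own.

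Among 18 corepressors of RBPJ 16 had a positive log2 fold change, with a median of 0.26, against 49.4% positive and a median of −0.0063 over all genes tested. Of the 18, 5 were higher and 0 lower at an unadjusted p under 0.05, against 5.90% higher and 8.45% lower over all genes tested. SRSF1KO libraries lay above all WT libraries for 9 of them, against 15.2% of all genes tested, and neither edgeR nor DESeq2 called any. Sap30, a subunit of the SIN3 histone deacetylase complex, stood at 25.2 and 25.3 CPM in SRSF1KO and 7.55, 12.6 and 17.6 CPM in WT (95% interval of the log2 fold change 0.20 to 1.81; edgeR adjusted p = 0.261). Cir1, which binds RBPJ, stood at 48.9 and 34.6 CPM in SRSF1KO and 27.7, 28.7 and 30.6 CPM in WT (edgeR, adjusted p = 0.293). The 8 genes listed as coactivators had a median of 0.03. Of these, the acetyltransferase gene Kat2b had a log2 fold change of 0.37 ± 0.23 (SE; edgeR adjusted p = 0.522). Ikzf1, which encodes Ikaros and is known in mouse thymocytes for repressing Notch targets despite its place in this list, stood at 873.2 and 980.9 CPM in SRSF1KO and 700.3, 641.8 and 738.6 CPM in WT (edgeR, adjusted p = 0.135; DESeq2 adjusted p = 0.00522).

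Notch-responsive genes of early thymocytes lay on both sides of WT. Of 17 tested, 10 had positive and 7 negative log2 fold changes, with a median of 0.25. At an unadjusted p under 0.05, 6 were higher and 1 lower, against 5.90% higher and 8.45% lower over all genes tested. Tcf7, the TCF-1 gene that Notch induces in T cell progenitors, stood at 2740 and 2431 CPM in SRSF1KO and 1858, 1983 and 1987 CPM in WT (edgeR, adjusted p = 0.118; DESeq2 adjusted p = 0.00133). Bcl11b, a zinc finger gene of T lineage commitment, stood at 576.0 and 518.0 CPM in SRSF1KO and 420.9, 406.2 and 374.6 CPM in WT (log2 fold change 0.45 ± 0.10, SE; edgeR adjusted p = 0.122; DESeq2 adjusted p = 0.00159). Both are also expressed throughout later thymocyte development. The gene that was lower, Myc, a growth regulator that Notch induces in mouse T cell progenitors, stood at 46.6 and 71.2 CPM in SRSF1KO and 96.8, 104.3 and 90.0 CPM in WT (−0.72 ± 0.19, SE; edgeR adjusted p = 0.169; DESeq2 adjusted p = 0.0130). Its SRSF1KO libraries lay below all WT libraries, as those of Dtx1 did. Of the 17, SRSF1KO libraries lay above all WT libraries for 7 and below them for 2, against 15.2% and 17.8% of all genes tested. The 7 include Ptcra, at 31.8 and 27.2 CPM in SRSF1KO and 17.3, 22.5 and 15.7 CPM in WT (edgeR, adjusted p = 0.255). They also include Heyl, with 70 and 94 counts in SRSF1KO and 1, 4 and 37 in WT (edgeR, adjusted p = 0.403).

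**Figure D4:**
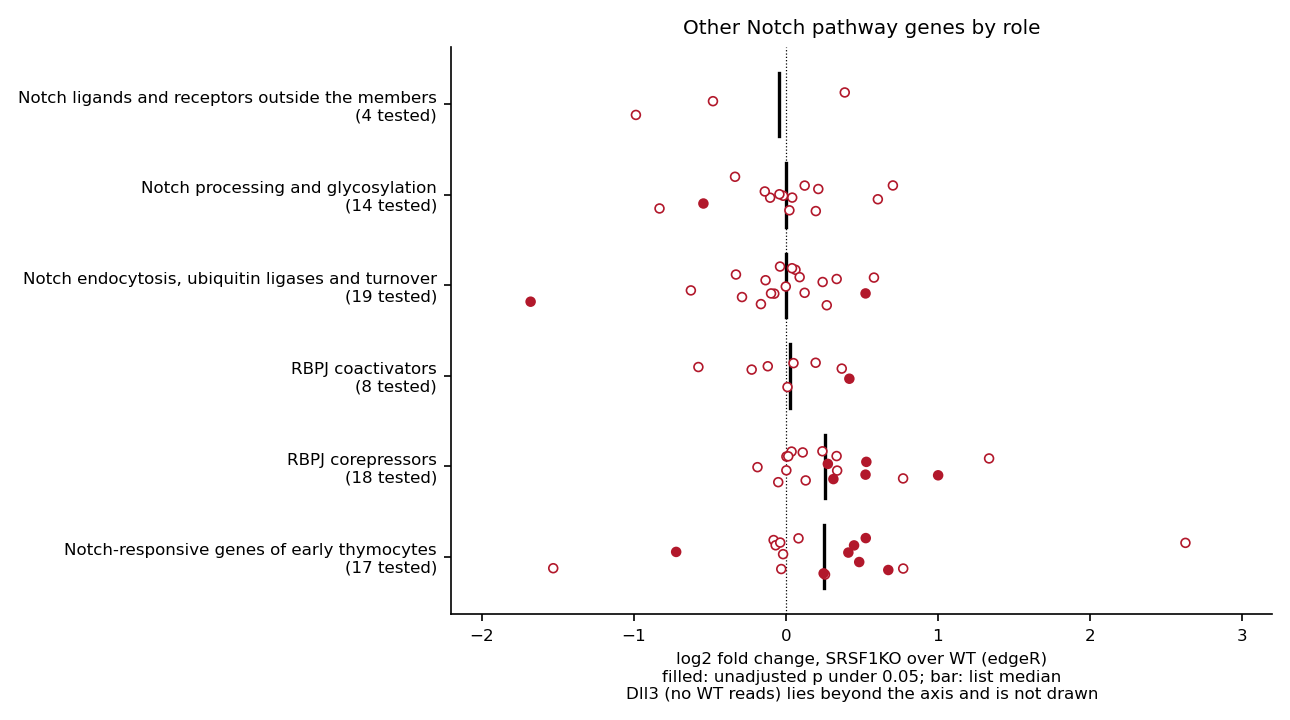
log2 fold change of SRSF1KO over WT (horizontal axis) for the other Notch pathway genes tested, in 6 lists by role (rows), with black bars at the list medians and filled points at an unadjusted p under 0.05. Corepressors lie mostly to the right of 0, with a median of 0.26, and Dll3 is not drawn because its WT libraries held no reads.

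Summed markers of double-positive and of mature single-positive thymocytes differed between the groups. Over all genes tested, SRSF1KO libraries lay above all WT libraries for 15.2% and below them for 17.8%, and the counts in this paragraph are read beside these shares. The summed level of 10 double-positive markers was 10150 and 7676 CPM in SRSF1KO, against 6484 to 7522 CPM in WT, with 6 of the 10 higher and none lower without overlap. The summed level of 7 markers of mature single-positive cells was 968.6 and 1375 CPM in SRSF1KO, against 1949 to 2085 CPM in WT, with 4 lower and none higher without overlap. For both lists SRSF1KO replicate 1 lay farther from WT than replicate 2. In SRSF1KO replicates 1 and 2, Lfng stood at 30.8 and 50.8 CPM, Dtx1 at 34.6 and 34.4 CPM, and Rbpj at 79.0 and 75.9 CPM. The part of stage composition in the values of Lfng, Dtx1 and Rbpj was not tested. The summed level of 6 double-negative markers, leaving out Hes1 and Dtx1, overlapped between groups, at 155.1 and 264.2 CPM in SRSF1KO and 200.4 to 234.7 CPM in WT. Most of that sum was Il7r, at 82.8 and 191.7 CPM in SRSF1KO and 133.8 to 162.3 CPM in WT. Of the 6, 2 were higher without overlap (Ptcra, and Igll1 with 44 and 30 counts in SRSF1KO against 0, 2 and 2 counts in WT) and 1 was lower (Kit, at 5.77 and 9.06 CPM in SRSF1KO and 11.2 to 21.4 CPM in WT).

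The libraries held between 36026006 and 38985285 counts, and Srsf1 itself stood at 42.6 and 30.9 CPM in SRSF1KO, against 96.9 to 122.7 CPM in WT. The genes of the sort gate Cd4, Cd8a, Cd69 and Cd24a stood between 182.7 and 1829 CPM in every library, and of these Cd4 separated the groups, at 1229 and 1118 CPM in SRSF1KO and 767.1 to 932.2 CPM in WT (edgeR adjusted p = 0.136; DESeq2 adjusted p = 0.00475). Summed markers of B cells and of endothelial or mesenchymal cells overlapped between groups, and no gene of either list separated them. The 8 markers of dendritic cells or macrophages summed to 89.7 and 84.2 CPM in SRSF1KO and 77.7 to 92.5 CPM in WT, mostly Lyz2 and C1qa. Of these 8, Xcr1 was lower without overlap, with 0 and 1 counts in SRSF1KO and 50, 57 and 29 counts in WT (edgeR adjusted p = 0.136; DESeq2 adjusted p = 0.0137), and Siglech was higher without overlap, at 5.47 and 9.68 CPM in SRSF1KO and 3.68 to 4.03 CPM in WT. Over all genes tested, 17.8% were lower and 15.2% higher without overlap. The 7 thymic epithelial markers summed to 29.96 and 18.83 CPM in SRSF1KO and 16.8 to 21.1 CPM in WT, highest in SRSF1KO replicate 1, where Epcam stood at 20.1 CPM. Of these, Foxn1, which defines that cell type, had 12 and 1 counts in SRSF1KO and 0, 1 and 0 counts in WT, and Dll4 is given above. The part of these other cell types in the values of the 10 genes was not tested. The 10 genes with most counts held 10.2% and 9.92% of the counts in SRSF1KO and 6.77% to 8.27% in WT, and the part of this in the values above was not tested. Sex-linked transcripts differed within each group, with more Ddx3y than Xist counts in SRSF1KO replicate 1 and WT replicate 2 and the reverse in the other 3 libraries. Within the Ddx3y-rich libraries (1 of each group) the log2 difference of SRSF1KO minus WT was −1.15 for Dtx1, −1.18 for Lfng and 0.38 for Rbpj. Within the Xist-rich libraries (1 SRSF1KO, 2 WT) it was −0.89 for Dtx1, −0.52 for Lfng and 0.50 for Rbpj, and no test was run within either set, the first of which has 1 library a group. In a fit of all 5 libraries with this pattern as a term, added after the data were seen, the log2 fold changes were −1.0 for Dtx1 (edgeR, adjusted p = 0.187), −0.80 for Lfng (adjusted p = 0.217) and 0.45 for Rbpj (adjusted p = 0.270). Notch1 and Notch3 were also above WT in both comparisons, by 0.34 and 0.39 among the Ddx3y-rich libraries and by 0.35 and 0.92 among the Xist-rich ones. Maml1 differed in sign, at −0.55 among the Ddx3y-rich libraries and 0.01 among the Xist-rich ones, and so did Notch2, at −0.11 and 0.21.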

How the data were processed

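The authors deposited 1 table of raw, whole-number counts for 5 RNA-seq libraries and 53715 versioned Ensembl mouse IDs. Per the submitters' processing notes the build was mm10 and the tools included HTSeq 0.6.1, a read counter, and DESeq2 1.20.0, with no role stated for either. For RNA-seq, the aligner, annotation and strand setting stand in none of the sources used here (not given). A names table gave 53620 IDs a symbol, matched without version where needed.

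All genes were fitted at once with edgeR 4.0.16 in R 4.3.3 (glmQLFit, robust; glmQLFTest, two-sided) after TMM scaling and filterByExpr, with Benjamini-Hochberg adjustment over 17351 genes and calls at an adjusted p under 0.05. Standard errors and 95% intervals come from the F statistic. The common biological coefficient of variation was 0.494. In counts drawn with these means and dispersions, edgeR recovered 61% of 100 genes with 2-fold and 93% of 100 with 4-fold changes, among 16346 tested. The changed genes were drawn from those averaging at least 5 CPM, a level that Hes1 and Nrarp did not reach. DESeq2 recovered 77% and 97%. Calls of unchanged genes numbered 8 with edgeR, 58 with DESeq2 and 10 with limma-voom. Alternatives used other scalings and filters, DESeq2 1.42.0, limma-voom 3.58.1, the replicate number as a block, and each library left out. A term for the sex-linked pattern was added after seeing the data. Every pair of libraries differed by more than sampling noise (chi-square per degree of freedom 43.1 to 128). Coordinates and promoters are from RefSeq on GRCm38.p6, the assembly that mm10 names.

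The genes and lists were chosen with earlier results of these data known. The rule for named genes took all 10 members, Srsf1, the gate genes, markers that define a cell type and, of each list, the called genes or else the 2 with the smallest p. Dll4, Rfng, Myc, Heyl, Ptcra, Gata3, Runx1 and the other markers were named after their values were seen.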

Additional observations from a re-analysis of the deposited data

How the results depend on the processing

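Of the 10 genes, 9 kept the direction of their log2 fold change under every alternative that could be fitted, and Notch2 did not: it was −0.0007 with the replicate block and −0.14 without SRSF1KO replicate 2, with a highest value of 0.23 when single libraries were left out. Nrarp, counted among the 9, was at 0.0004 without SRSF1KO replicate 2, against 0.90 as reported. With 1 library left out Hes1 ranged from −0.86 to −0.12, Numb from 0.06 to 0.37 and Maml1 from −0.32 to −0.033. Hes1 and Nrarp fell under the minimum of 5 CPM, and Nrarp under the filter without WT replicate 3, so those settings gave no value for them. The count of members called was 0 as reported and 2 without the filter on low counts, 1 at a mean of at least 5 CPM and 3 with DESeq2; it was 0 with DESeq2 size factors, upper quartile scaling, limma-voom, the replicate block, the sex-linked term and each library left out. The count of other pathway genes called was 0 as reported, 7 without the filter, 5 at a mean of at least 5 CPM, 9 with DESeq2 and 1 with limma-voom. Over all genes the calls were 46 as reported, 10 with DESeq2 size factors, 544 without the filter, 376 at a mean of at least 5 CPM, 1016 with DESeq2, 83 with limma-voom, 0 with the replicate block (1640 at an unadjusted p under 0.05), 5 with the sex-linked term, and 0 to 88 with 1 library left out (0 without any of the 3 WT libraries, 11 without SRSF1KO replicate 1, 88 without replicate 2). The cause of these differences was not tested. The median log2 fold change of the members was 0.18 with the replicate block and −0.071 to 0.22 with 1 library left out, the lowest without SRSF1KO replicate 2. Deviations from the group mean correlated at −0.056 for the libraries numbered 1 and −0.03 for those numbered 2. With 2 SRSF1KO libraries their deviations mirror each other, so these values do not settle whether replicate numbers pair the libraries. Depth limits Nrarp, and with 1 SRSF1KO library the spread is taken from WT alone.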
